A study of Synthetic plasmid and Mus musculus with 4 samples.

Results

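The regions described here are the 439 R sites with numbers above 500 in a barcoded reporter library, out of 3483 target regions in 4 lettered classes (R, B, H and L). They were chosen by their identifier alone, from R501 upwards, and the highest number present was R999. The tables give only the letters; from knowledge of the study they stand for open chromatin sites (DNase hypersensitive) found in retina, in brain, in heart and in liver. Each construct joined 1 captured genomic fragment of C57BL/6J mouse DNA to a transcribed barcode, and the 439 regions were carried by 5803 of the 45670 constructs. The fragments were 196 to 684 bp long with a median of 462 bp, and a region had a median of 7 constructs (at most 116). A region was reported in a tissue when at least 5 of its constructs had 10 or more counts in each of the 3 DNA libraries there, a filter that uses no RNA value. This left 244 regions in retina and 250 in cortex, while 182 regions in each tissue had 1 to 4 such constructs, and 13 in retina and 7 in cortex had none.

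Reporter activity was measured in 2 tissues of CD-1 mice, for which no mutant allele is labelled. The retina group consists of whole retinas electroporated outside the animal on the day of birth and kept in culture for 8 days, as 3 biological replicates of 5 pooled retinas. The cortex group consists of cerebral cortex of living mice that were 4 to 6 weeks old when injected with adeno-associated virus, of which the GFP-positive parts were dissected 4 to 5 weeks later, as 3 replicates of 1 animal each. Every replicate gave an RNA and a DNA library, so 12 libraries were used, with 4000439 to 10411511 RNA counts and 3999412 to 12147398 DNA counts. Tissue cannot be told apart from delivery, age and sequencing lane, and in bulk tissue a few strongly transcribing cells and many weakly transcribing ones give the same count. Only barcodes were counted, so no marker gene of any cell type could be examined, and the fragments were measured on introduced DNA, outside their own place in the genome.

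DNase hypersensitive sites are stretches of open chromatin, where transcription factors rather than nucleosomes occupy the DNA, and they include promoters, enhancers, insulators and sites with no known function. An enhancer can raise transcription from a promoter placed beside it, which is what a reporter assay detects. In the developing retina such elements steer the genes of photoreceptors and of the interneurons that read them, and electroporation at birth reaches mostly the dividing progenitors of rods and late-born interneurons. A fragment that is open in a tissue does not have to be active on its own in a reporter.

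The following barcodes mark the most and the least active fragment of the 3 most active regions in retina and the 2 most active regions in cortex. They are shown because each pair of fragments comes from 1 region and differs in the part of it that was cloned, as described further on. The pairs of R899, R885 and R523 also differ in orientation, and lengths differ within pairs. Each is the barcode as listed in the construct table, all in lower case because no part of a barcode is singled out, and the fragment's position (mm9) stands in the line before it.
R539, most active, minus strand, chr1:77656775-77657318
R539 barcode: gtagcgccaagattt
R539, least active, minus strand, chr1:77656779-77657154
R539 barcode: cctactgtcgcgggc
R899, most active, minus strand, chr5:22717928-22718343
R899 barcode: accaaaaccatcgtc
R899, least active, plus strand, chr5:22718183-22718561
R899 barcode: accttggcacccctc
R751, most active, plus strand, chr14:37880696-37881283
R751 barcode: cctcccaccaattcc
R751, least active, plus strand, chr14:37881198-37881657
R751 barcode: acttaaccccgcgtg
R885, most active in cortex, minus strand, chr10:11038067-11038291
R885 barcode: ccatgcttttaacga
R885, least active in cortex, plus strand, chr10:11038120-11038592
R885 barcode: ccgctcacctcaaaa
R523, most active in cortex, plus strand, chr2:29682434-29682892
R523 barcode: ccctatacgtacccc
R523, least active in cortex, minus strand, chr2:29682017-29682567
R523 barcode: tgtccaccagcaaca

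In retina, fragments of R regions above 500 were transcribed more than fragments of the H and L classes and less than those of R1 to R500. The measure is the share of a library's RNA counts divided by the share of its DNA counts, called the activity ratio below, where 1 means equal shares. For all 4586 constructs of these regions together the ratio was 1.24, 1.29 and 1.31 in the 3 retina replicates, or 1.28 ± 0.0346 (SD, n = 3). The H and L constructs together had 0.0647, 0.0743 and 0.0788, and R1 to R500 had 6.36, 6.15 and 6.22. The 3 sets did not overlap in any replicate. The ratio of the higher-numbered R regions was 17.7 times that of H and L and 0.205 times that of R1 to R500, with the same order in 3 of 3 replicates (exact paired permutation tests, two-sided, p = 0.25 each, the smallest that 3 pairs allow). In cortex the same regions had ratios of 0.832, 0.877 and 0.813, or 0.841 ± 0.0331, close to 0.796 ± 0.0320 for R1 to R500 and 0.795 ± 0.0251 for H and L (SD, n = 3). The ratio in retina was 1.53 times that in cortex, and the replicates of the tissues did not overlap (exact permutation test of 3 against 3, two-sided, p = 0.1, the smallest it can give). These shares are relative within a library: R1 to R500 alone took 78.2% ± 0.915 of retina RNA, which lowers the ratio of every other set there.

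RNA was also found for more constructs of these regions than for H and L constructs in retina. Among the constructs above 500, 29.9% ± 3.92 had RNA in a given retina replicate, against 45.6% ± 3.25 for R1 to R500 and 11.3% ± 2.44 for H and L (SD, n = 3). RNA in all 3 retina replicates was seen for 14.0% of the constructs, and in none for 49.6%. In cortex 60.1% ± 6.26 had RNA in a given replicate, against 59.9% ± 5.93 for H and L, a difference within the spread between replicates.

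Most regions had low activity in retina, and a minority carried most of the RNA. The median activity ratio over the 244 regions was 0.123, 0.162 and 0.153 in the 3 replicates. A mean ratio of 30 or more was reached by 1 region, 10 to 30 by 6, 3 to 10 by 21, and 1 to 3 by another 21. Below that, 42 regions lay between 0.3 and 1, 67 between 0.1 and 0.3, and 86 under 0.1. In 88 regions even the lowest replicate exceeded every replicate of the H and L constructs. This sets single regions against a summed level, and the same count over all tested regions was not made, so the 88 have no background share beside them. The 5 regions with most RNA, R899, R751, R530, R748 and R539, gave 40.7% of the RNA of the 244 regions, and the top 10 gave 58.9%. In cortex the top 10 of 250 regions gave 19.3%, led by R885 and R523.

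Tested region by region, 65 of 244 regions (26.6%, 95% exact binomial interval 21.2 to 32.7) were called higher in RNA than in DNA in retina, where 8.81% of all 2031 tested regions were called. Called means an adjusted p under 0.05 in edgeR's quasi-likelihood test on counts summed over the constructs of a region, with the replicate as a block. The share was 48.1% of 233 regions for R1 to R500, 0.456% of 439 for B and 0 of both 489 H and 626 L regions. The median log2 RNA/DNA was 0.01 above 500, 2.30 for R1 to R500 and -1.96 over all tested regions, on a scale whose zero is set by the trimmed-mean scaling. All 65 had RNA in every retina replicate, as had 181 of the 244 regions. The 65 held 13.5% ± 0.317 of retina RNA on 3.67% ± 0.0609 of retina DNA (SD, n = 3). Their log2 RNA/DNA ran from 1.57 to 9.13 with a median of 4.25. The 178 regions without a call held 1.07% ± 0.0709 of the RNA on 7.61% ± 0.0553 of the DNA, a ratio of 0.140 ± 0.0100. The calls were made from these same counts, so a difference in this direction was built into the split. The count of calls rests on the scaling: with total library size 22 regions were called higher and 66 lower, in place of 65 and 1, as all regions moved by -3.54 in the median. In this fit the spread of a region was drawn towards that shared across regions, wholly so for the median region. For such regions the p-values reflect the shared spread more than the replicates of the single region.

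Called regions had more constructs and a larger share of RNA-bearing fragments. They had a median of 16 constructs and 11964 DNA counts, against 10 constructs and 9226 or 9227 (median 9226.5) for the regions without a call, so depth differed along with the call, and its part in the calls was not tested. The call was made from the same RNA counts, so the RNA values that follow are not independent of it. Among constructs of called regions 75.1% had RNA in at least 1 replicate and 38.5% in all 3, against 38.4% and 2.1% in the others. The construct with most RNA gave a median of 29.4% of a called region's RNA and 63.2% of that of the others. When that construct was left out of every region, 63 of the 65 were still called higher, and none turned negative. The scaling was refitted on the reduced counts, from which the regions without a call had lost the larger part of their RNA. The log2 of R539, for example, rose from 9.13 to 10.34. The count of 63 therefore cannot show whether calls rest on 1 construct.

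The most active region was R539 (chr1:77657066-77657365, mm9; all windows are 300 bp). Its activity ratio was 44.9, 50.6 and 52.8 in the retina replicates and 0.0822, 0.524 and 1.16 in the cortex replicates. The tissues were far apart, and 7 of its 8 constructs had RNA in every retina replicate. Its log2 RNA/DNA in retina was 9.13 (SE 0.23, edgeR adjusted p = 1.02e-289) and -0.97 (SE 0.82, adjusted p = 0.713) in cortex.

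R899 (chr5:22718026-22718325) had ratios of 27.6, 26.2 and 19.6 in retina and 0.655, 0.536 and 0.692 in cortex. R751 (chr14:37881066-37881365) had 29.9, 18.0 and 25.4 in retina and 0.754, 0.599 and 0.841 in cortex. These regions could not be ranked against each other, as their replicates overlapped, with means of 24.4 ± 4.28 and 24.4 ± 6.02 (SD, n = 3). Both stayed below every replicate of R539. Their log2 values in retina were 8.10 (SE 0.20) and 8.08 (SE 0.20).

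R743 lies on the X chromosome (chrX:7184066-7184365) and had ratios of 17.4, 14.9 and 16.3 in retina, with RNA in all 3 replicates from each of its 15 constructs. R911 (chr16:56204206-56204505) had 11.1, 13.4 and 15.9, and all 11 of its constructs had RNA in each replicate. R654 (chr19:8479866-8480165) had 7.46, 11.1 and 14.7 from 8 constructs. Replicates of R911 and R654 overlapped, while every replicate of R743 lay above those of R654.

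R568 (chr10:73324946-73325245) had ratios of 8.92, 14.2 and 8.66 in retina, and 61.2% of its RNA came from 1 of its 7 constructs. R551 (chr4:53488646-53488945) had 11.2, 9.97 and 8.41 from 27 constructs, of which the top one gave 15.0%. R748 (chr10:44184426-44184725) had 7.74, 10.3 and 11.7 from 39 constructs. The replicates of these 3 regions overlapped one another, although 7, 27 and 39 constructs stand behind them. R530 (chr13:95289186-95289485), with 63 constructs, had 8.60, 8.78 and 8.88, the narrowest spread of the 10 most active regions (8.75 ± 0.144, SD, n = 3). The log2 values of the 7 regions from R743 to R530 ran from 6.63 to 7.52 in retina. In cortex the ratios of the 10 regions had means from 0.496 (R911) to 1.38 (R654), and none was called there.

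**Figure D1:**
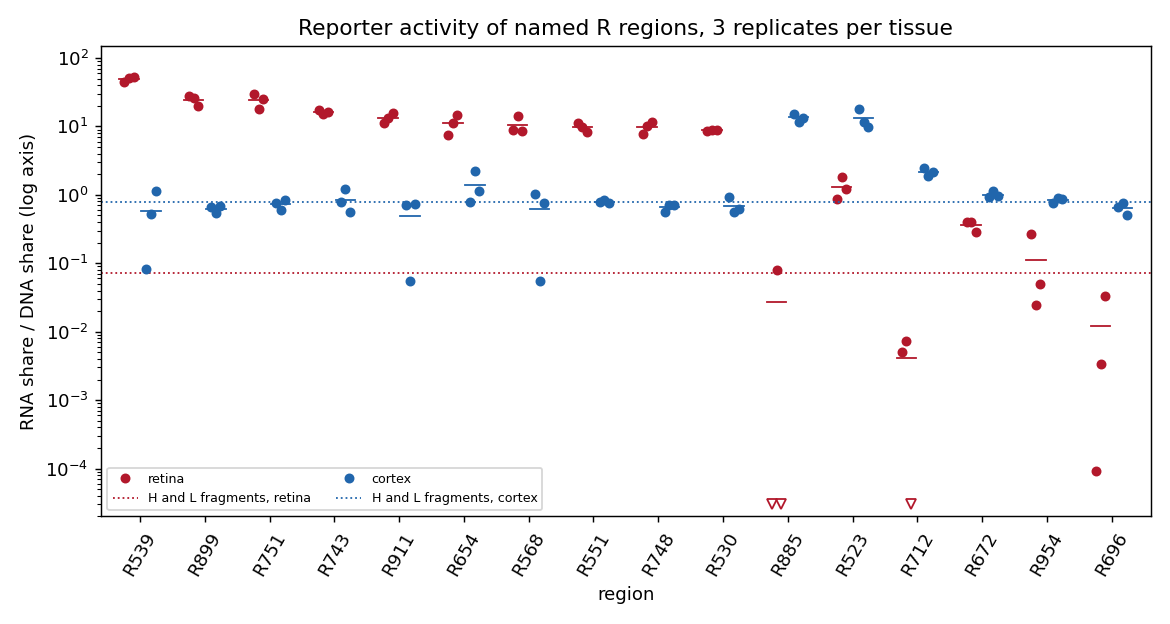
Activity ratio (RNA share over DNA share, log axis) of the 10 regions most active in retina, the 3 called in cortex, the regions with most constructs and the region called lower in retina; points are the 3 replicates per tissue (red retina, blue cortex), short lines their means, open triangles at the bottom a replicate with no RNA, and dotted lines the H and L constructs of the tissue. R539 sits at 44.9 to 52.8 in retina against 0.0822 to 1.16 in cortex, while R885 and R523 lead in cortex.

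Of the 3 regions with most constructs, R530 was among the 10 most active, as given above, and R672 and R954 were not. R672 (chr2:180217866-180218165) had 88 constructs in retina and ratios of 0.397, 0.396 and 0.288, all above the H and L level of 0.0726 ± 0.00718. Only 3 of its 88 constructs had RNA in all 3 replicates. Its log2 of 2.02 (SE 0.37, edgeR adjusted p = 9.52e-07) was called higher, but turned to -1.53 with total library size and lost the call in limma (1.02, adjusted p = 0.101). R954 (chr6:113217186-113217485), with 85 constructs, had 0.264, 0.0246 and 0.0503, values that fall on both sides of the H and L level. It was not called (log2 -0.41, SE 0.61, adjusted p = 0.739). Among the called regions R772 (chr16:96339726-96340025) had the lowest mean ratio, 0.275 ± 0.102, and the highest mean ratio without a call was 1.21 ± 1.46 for R535, whose replicates were 0.404, 0.322 and 2.89 (SD, n = 3; both regions were singled out after their values were seen).

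R696 (chr7:4083626-4083925) was called lower in retina, 1 of 244 regions, where 0.148% of all regions were. It had 53 constructs, of which 9 had any RNA, with 1, 33 and 518 RNA counts against 18503, 9348 and 16293 DNA counts in the 3 replicates. Its 3 retina ratios were below every replicate of the H and L constructs, and replicate 3 held nearly all of the RNA. In cortex its ratios were 0.665, 0.766 and 0.506, and the difference between the tissues was not called (log2 -4.42, SE 1.64, adjusted p = 0.119). Its log2 was -4.94 (SE 1.61, edgeR adjusted p = 0.0247). The call was lost without retina replicate 1 (log2 -3.09, adjusted p = 0.553) or 2 (-5.19, adjusted p = 0.495), without the block (-2.81, adjusted p = 0.414) and in limma (-0.47, adjusted p = 0.227). It was also lost with the H and L targets as library size (adjusted p = 0.0683) and with no DNA minimum (adjusted p = 0.0678). No RNA at all was found in retina for 3 regions, R646, R798 and R985, from 5, 5 and 9 constructs.

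In retina, fragments holding less than 200 of the 300 bases of the window were less active than the others. Over all regions above 500, fragments with the whole window had a ratio of 1.49 ± 0.0984 and those with at least 200 but not all bases 1.55 ± 0.0266 (SD, n = 3). Fragments with 100 bases or more but under 200 had 0.393 ± 0.0296, and those with 1 to 99 bases 0.0662 ± 0.0620, from 120 constructs. The replicates of the latter were 0.0238, 0.0374 and 0.137, on both sides of the H and L level. Fragments with at least 200 bases were thus 4.29 times as active as the rest, by 3.85 to 4.59 times in the single replicates (exact paired permutation test, two-sided, p = 0.25, the smallest that 3 pairs allow). The share of fragments with RNA was 34.1% ± 4.15 with the whole window and 32.4% ± 4.15 with at least 200 but not all bases. It was 17.0% ± 3.91 with 100 bases or more but under 200, and 9.17% ± 1.44 with 1 to 99 bases. In cortex the ratio was 0.819 ± 0.0487 with the whole window and 0.836 ± 0.0229 with at least 200 but not all bases. Fragments with 1 to 99 bases had 1.25 ± 0.161 there, and 0.722 ± 0.0903 without the 4 such fragments of R885.

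**Figure D2:**
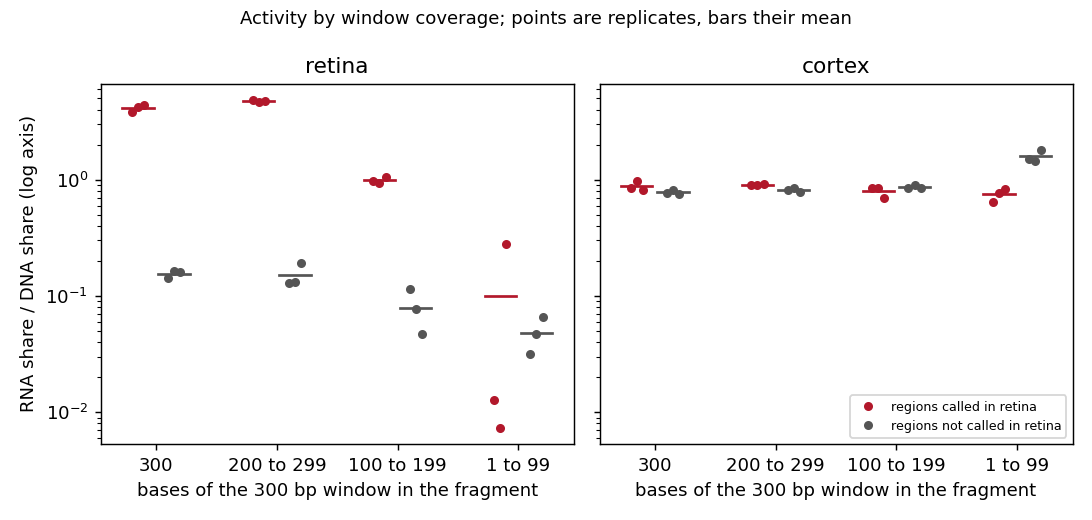
Activity ratio (log axis) against the number of bases of the 300 bp window in the fragment, in retina (left) and cortex (right), for regions called higher in retina (red) and tested regions without that call (grey); points are the 3 replicates and lines their means. In retina the called regions lie at 4.16 and 4.74 with 200 or more bases and at 0.995 with 100 or more but under 200, while in cortex their means lie between 0.747 and 0.906.

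Length and orientation of the fragment moved the ratio less than the covered part of the window. Among fragments with the whole window, those of up to 420 bp had a ratio of 1.46 ± 0.140 in retina, those over 420 and up to 470 bp 1.85 ± 0.196, those over 470 and up to 520 bp 1.30 ± 0.140 and those over 520 bp 1.39 ± 0.0854 (SD, n = 3). Plus-strand fragments had 1.29 ± 0.0562 and minus-strand fragments 1.28 ± 0.0554. Single regions could differ more. Of 60 called regions with at least 2 constructs in each orientation, 13 were higher on the plus strand in all 3 replicates and 13 on the minus strand. R899 was among the latter, with 31.0 from 17 minus-strand and 4.61 from 5 plus-strand constructs, and R911 too, with 27.5 from 4 and 6.85 from 7. R551 went the other way, with 14.1 from 12 plus-strand and 6.66 from 15 minus-strand constructs. Fragments of a region also differ in position, so orientation and position are not separated here. The same constructs were counted in every replicate, and the counts of 13 were not tested against those expected without an orientation effect.

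Within the most active regions, neighbouring fragments showed which stretch went with activity. Positions below count from the start of the window, which runs from 0 to 300. In R539 the 7 active fragments had mean ratios of 35.1 to 141, and the only fragment without RNA ran from -287 to 89. An active neighbour began at nearly the same place but ran from -291 to 253, with a mean ratio of 141. Another active fragment ran from 83 to 544, with 58.1. The silent and the second active fragment therefore shared only the bases from 83 to 89, and the active ones all held the stretch from 83 to 240.

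In R751 the fragments from -370 to 218 and from -127 to 217 had mean ratios of 66.5 and 27.0. A fragment ending at 158 was at 4.35, and one that began at 132 and ended at 592 had 7 RNA counts in all, a mean ratio of 0.0193. In R899 minus-strand fragments that began at 60 or ended at 267 still had mean ratios of 49.8 and 29.1. The plus-strand fragment that began at 105 had 3.72, and the plus-strand fragment that began at 157 had no RNA. Orientation therefore differed along with the start, and the effects of orientation and start are not separated. The other plus-strand fragments of R899 ran from 53 to 492, from -173 to 281 and from -24 to 415. They had 55.7, 39.3 and 5.83, and the last of them held the whole window. A fragment of R899 from -73 to 395 held the whole window and yet had 0, 5 and 0 RNA counts on 388, 190 and 320 DNA counts, while one from -83 to 267 had 29.1. Each of these values rests on 1 barcode, and constructs of a region share sequence and are not replicates.

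In cortex 3 of 250 regions above 500 (1.2%, 95% exact binomial interval 0.248 to 3.47) were called higher, where 2.99% of all 2108 tested regions were called. This was below the 11.9% of 461 B regions and close to the 1.64% of 244 R1 to R500 regions. No region above 500 was called lower in cortex by edgeR (0.0% of all regions), where 11 had an unadjusted p under 0.05 in that direction, DESeq2 called 2 and limma 0. The median log2 was -0.08, against -0.09 over all tested regions. Replicates of cortex resembled one another little over these 250 regions (Pearson r of 0.18 to 0.39 between replicates), compared with 0.62 to 0.65 over the 244 regions in retina. These correlations describe regions of a shared library and are not tests.

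R885 (chr10:11037886-11038185) had activity ratios of 15.4, 11.8 and 13.4 in the cortex replicates, from 14887, 17960 and 43654 RNA counts. In retina it had 0 RNA counts in replicates 1 and 3 and 129 in replicate 2, on 7642 DNA counts. The tissues were far apart in the opposite direction to R539. Its log2 RNA/DNA in cortex was 4.14 (SE 0.19, edgeR adjusted p = 4.13e-10), and all 13 of its constructs had RNA in at least 1 cortex replicate. Its most active fragments lay towards the end of the window and were short: the fragment from 181 to 406 had a mean ratio of 56.8, that from 202 to 401 had 51.4 and that from 226 to 440 had 27.2. Fragments ending at 170 or beginning at 277 had 3.26 and 0.907. A longer fragment, from 176 to 613, held all bases of these 3 fragments and had 2.26.

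R523 (chr2:29682406-29682705) was called in both tissues. Its ratios were 18.0, 11.7 and 9.81 in cortex and 0.877, 1.84 and 1.20 in retina. Both sets lay above every replicate of the H and L constructs of the tissue, and log2 RNA/DNA was 4.06 (SE 0.23, edgeR adjusted p = 7.45e-09) in cortex and 3.82 (SE 0.74, adjusted p = 3.01e-06) in retina. In cortex the 3 fragments that reached 487 or further had mean ratios of 59.1, 34.1 and 22.6. The other 4 ended between 162 and 264 and had 3.28, 0.608, 0.198 and 0. The stretch that the active fragments held and the others lacked began at 264 and so lay mostly beyond the window, which ends at 300.

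R712 (chr15:72484086-72484385) had ratios of 2.46, 1.90 and 2.12 in cortex and 0.00509, 0.00736 and 0 in retina. Its replicates in cortex lay above the H and L constructs but far below R885 and R523. Its log2 in cortex was 1.49 (SE 0.29, edgeR adjusted p = 0.00578), and the call was lost in limma (0.79, adjusted p = 0.660), with total library size (adjusted p = 0.0527), without cortex replicate 1 (adjusted p = 0.0621) or 3 (adjusted p = 0.0938) and without its top construct (1.06, adjusted p = 0.219), which gave 49.1% of its RNA. R947 had a higher mean ratio, 3.08 ± 1.59 (SD, n = 3), but its replicates spread from 1.60 to 4.77 and it was not called (adjusted p = 0.312; it was singled out after its values were seen).

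The tissues were then compared directly as an interaction over all 12 libraries, for 240 regions above 500. Higher activity in retina was called for 57 of them (23.8%, where 8.35% of all 2000 regions were called), and higher activity in cortex for 3 (1.25%, where 5.0% of all were called). These calls use the same retina libraries as the retina test and are not separate evidence. The difference was tested for all 65 regions called in retina, and 55 of them were called for it, towards retina. The 10 that were not are R522, R523, R526, R708, R772, R789, R844, R845, R867 and R963. R603 and R945 were higher in retina than cortex without a call in retina. With total library size the split was 21 higher in retina and 72 higher in cortex, and DESeq2 gave 75 and 34.

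In cortex, the log2 RNA/DNA of the 65 regions had a median of -0.01 (range -2.61 to 4.06), against -0.11 for the 178 others. Among fragments with at least 200 but not all bases of the window, the 65 had higher cortex ratios than the 178. They were 0.901, 0.901 and 0.915 against 0.811, 0.850 and 0.783. The 65 include R523, whose fragments of this kind had mean ratios of 59.1, 22.6, 3.28 and 0.608. The ratio of the 65 without R523 was not computed. With 1 to 99 bases the order was reversed, at 0.644, 0.766 and 0.832 against 1.51, 1.44 and 1.82. Here the 178 include fragments of R885. With the whole window, and with 100 bases or more but under 200, the replicates overlapped. None of these differences was tested. A cortex ratio above 1 in all 3 replicates was found in 2 of the 65 and in 9 of the 178. The scatter of retina against cortex values shows activity spread over the retina axis and narrow on the cortex axis.

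**Figure D3:**
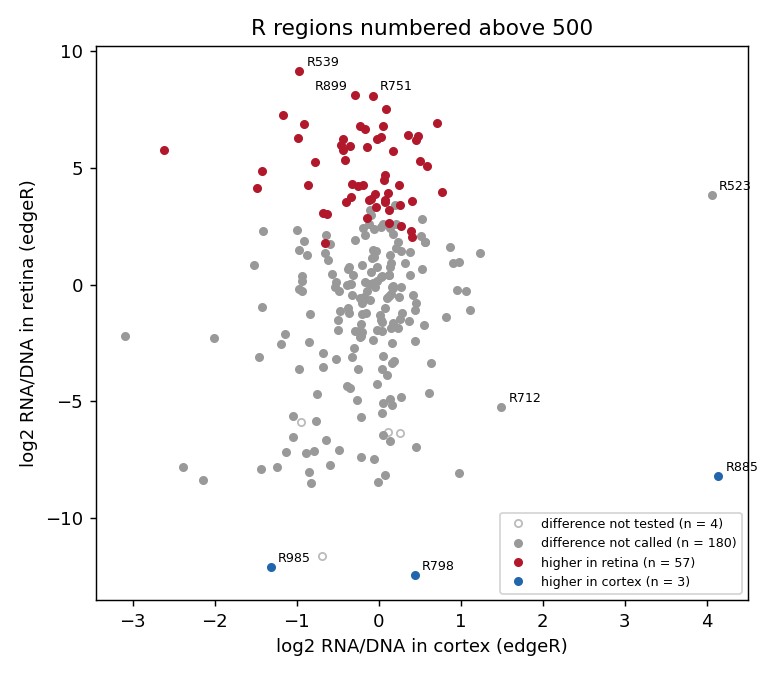
Log2 RNA/DNA of each region above 500 in retina (y axis) against cortex (x axis), both from edgeR; red points were higher in retina (57), blue points higher in cortex (3), filled grey points not called (180) and open points not tested for the difference (4). Most points lie near 0 on the cortex axis, and R523 is the only one called higher in each tissue.

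The largest difference in favour of retina was that of R539, a log2 of 10.13 (SE 0.88, edgeR adjusted p = 1.04e-05). R899 followed with 8.44 (SE 0.29) and R843 with 8.43 (SE 1.27). R843 (chr6:54583606-54583905) had retina ratios of 5.10, 4.51 and 4.67 and cortex ratios of 1.16, 0.0553 and 0.0487, so the size of its difference rests on low RNA in cortex replicates 2 and 3. R613 (chr2:54918346-54918645), at 7.43 (SE 0.50), had 8.74, 6.07 and 6.11 in retina and 0.192, 0.591 and 0.488 in cortex. The other 6 of the 10 largest were R911, R751, R568, R743, R748 and R530, between 6.83 and 8.41. The call of R843 was lost with total library size (5.19, adjusted p = 0.0517).

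In favour of cortex, R885 differed by -9.84 (SE 2.34, edgeR adjusted p = 0.0201), R798 by -12.98 (SE 3.02, adjusted p = 0.0242) and R985 by -10.93 (SE 2.89, adjusted p = 0.0383). On the constructs that passed in both tissues, R885 was 652-fold higher in cortex by pooled shares, from 129 retina RNA counts that came from 1 replicate. R798 (chr8:87514006-87514305) and R985 (chr11:88510366-88510665) had no retina RNA, so with a floor of 3 counts over the retina libraries they were at least 1327-fold and at least 280-fold higher in cortex by pooled shares. On these shares the H and L constructs were also higher in cortex, at 0.795 ± 0.0251 against 0.0726 ± 0.00718 in retina (SD, n = 3). The folds are not scaled to the H and L constructs and hold for library shares only. Floors cover counting error only. Neither R798 nor R985 was called higher in cortex itself. The cortex ratio of R798 was 1.23, 0.532 and 1.66. That of R985 was low, at 0.274, 0.286 and 0.366, below the H and L constructs and below the median mean ratio of 0.774 over the 250 regions. None of these 3 calls held without cortex replicate 1 or without cortex replicate 3, and without cortex replicate 2 only that of R885 did. The call of R885 was also lost without retina replicate 1 (-7.20, adjusted p = 0.0992) or 3 (-7.07, adjusted p = 0.0933) and with no replicate block (-5.89, adjusted p = 0.0662). That of R985 was also lost without retina replicate 3 (-10.79, adjusted p = 0.0522) and without the top construct (-10.43, adjusted p = 0.0738). The sign of R985 turned in limma (0.57). The number of regions higher in cortex was 10, 18 and 10 without retina replicate 1, 2 and 3, and 0, 1 and 0 without cortex replicate 1, 2 and 3.

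The share of R regions called in retina was lower at higher region numbers. The share called higher was 63.9% of 36 regions for R1 to R100 and 32.6% of 46 for R401 to R500. Above 500 it was 29.2% of 48 for R501 to R600, 28.8% of 52, 23.4% of 47 and 31.2% of 48 in the next blocks of 100, and 20.4% of 49 from R901. The summed activity ratio did not follow this order closely: it was 3.02, 3.02 and 2.97 in the retina replicates for R401 to R500 and 1.53 ± 0.0381 for R501 to R600, then 0.690 ± 0.00906, 2.05 ± 0.154, 1.77 ± 0.0873 and 0.610 ± 0.0461 (SD, n = 3). In cortex 0 or 1 region was called in each block of 100 above 500. What the numbers stand for is not given in the sources used here.

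**Figure D4:**
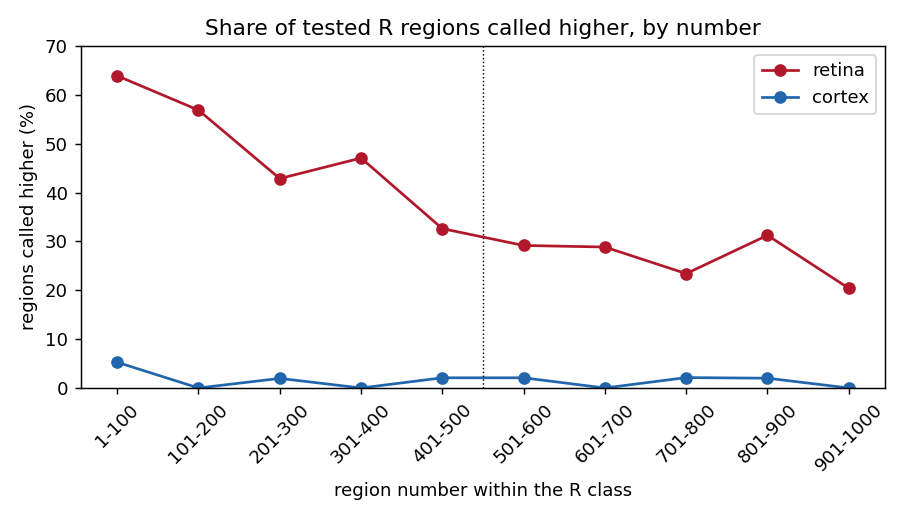
Percentage of tested R regions called higher in RNA than DNA (y axis) by blocks of 100 region numbers (x axis), in retina (red) and cortex (blue); the dotted line separates R1 to R500 from the higher numbers. In retina the share goes from 63.9% in R1 to R100 to 20.4% from R901, and in cortex it stays at or below 5.26%.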

How the data were processed

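In each tissue 3 RNA and 3 DNA libraries were used, as unnormalised barcode counts that the authors deposited, with 1 row a construct. A second deposited table holds each construct's read count, position and overlap with its window, and an identical copy of it was not used. The tools listed in the submitters' processing notes, without roles, are bedtools 2.22.1, SAMtools 0.1.19, Bowtie2 2.1.0 and FastQC, with build mm9. The authors' own normalised values were not used. No molecular identifiers enter the counts. The exact binomial intervals treat regions as independent draws and do not cover the spread between replicates. Shares were taken over constructs with at least 10 counts in each DNA library of the tissue.

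Windows of 300 bp were solved from fragment ends and overlaps (363 of 439 regions). Counts summed per region, over all regions with at least 5 constructs, went into edgeR 4.0.16 under R 4.3.3. Libraries were scaled by TMM, the robust quasi-likelihood test was used, and p-values were adjusted after Benjamini and Hochberg. Replicate was a block since the labels say that its RNA and DNA share a tissue sample. Over regions, the deviations of such pairs had correlations of -0.0444 to 0.0177, which show no pairing of their own. The median over regions of the estimated prior degrees of freedom was infinite in retina. DESeq2 1.42.0 and limma 3.58.1 (mean construct log2 ratios, prior count 2) were alternatives. Python 3.11.15 with scipy 1.17.1 did the rest.

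The regions and tests were chosen with earlier results of these data known. Named were, per tissue, the 10 highest and 5 lowest called regions with 1 sign in all 3 replicates, the 10 largest called differences in each direction, and the 3 regions with most constructs. Fragments were named in the top 3 regions of retina and the top 2 of cortex, beyond the highest and lowest after their values were seen. The analyses of window coverage, orientation, numbers and neighbours were likewise formed with results in view.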

Additional observations from a re-analysis of the deposited data

Results flagged for a closer look

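The effect in retina differed from that in cortex, by the test of the difference itself, for 13 regions named above. Log2 retina minus cortex was 10.13 for R539, 8.44 for R899, 8.43 for R843, 8.41 for R911, 8.22 for R751, 7.86 for R568, 7.51 for R743, 7.43 for R613, 7.10 for R748 and 6.83 for R530. It was -12.98 for R798, -10.93 for R985 and -9.84 for R885. The largest edgeR adjusted p among the first 10 was 8.58e-04 (R843), and that among the last 3 was 0.0383 (R985).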

How the results depend on the processing

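With the values in the order retina, cortex and retina minus cortex, 65, 3 and 57 regions above 500 were called higher and 1, 0 and 3 lower in the fits reported. Total library size gave 22, 2 and 21 higher and 66, 1 and 72 lower. DESeq2 gave 78, 7 and 75 higher and 32, 2 and 34 lower. Fits with no replicate block gave 73, 5 and 69 higher and 4, 0 and 5 lower. In retina the lower count was 0 with the H and L targets as library size and with no DNA minimum, 2 with a minimum of 50, 6 in limma and 22 without the top construct. With a DNA minimum of 50, 35 regions were higher in retina than cortex (163 tested, by construction fewer) and 1 was lower in cortex. Higher in cortex than retina were 5 with no DNA minimum, 7 with at least 3 constructs and 1 with at least 10. Leaving out 1 replicate gave 53 to 62 higher and 0 to 1 lower in retina, 2 to 4 higher and 0 to 1 lower in cortex, 47 to 62 higher in retina than cortex and 0 to 18 higher in cortex than retina.

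Signs turned for R672 in retina with total library size (-1.53), for R985 in limma (0.57 for the difference) and for R954 in retina (0.24 in limma, 0.33 with no replicate block, 0.30 without the top construct, and from -1.37 without retina replicate 1 to 0.45 without retina replicate 2). Apart from the shift of scaling and smaller sets, the cause was not tested. The summed activity ratios stayed within 1 SD in all alternatives run (1.27 to 1.30 in retina, 0.823 to 0.865 in cortex). In a given retina replicate 29.9% of the constructs had RNA, and a fragment with no RNA count is not shown to be inactive at this depth. The regions called lower in limma did not include R696.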

Other observations

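Some R regions that lie close together had very different retina values. Within 10000 bp of each other there were 39 pairs of a region above 500 and another R region, and in 17 of these both were tested in retina. In 0 of the 17 were both called higher, in 8 neither was, and in the others 1 of the pair was. Among all tested regions 26.6% were called above 500 and 48.1% in R1 to R500, and the count of pairs was not tested against these shares. R502 (chr14:56142966-56143265) and R112 (chr14:56143706-56144005) lie 740 bp apart: R502 had activity ratios of 0.0590, 0 and 0.000317 in retina, from 7 constructs, and R112 had 5.77, 4.25 and 3.46, from 37. R976 (chr2:156735886-156736185), with 0.401, 0 and 0, lies 900 bp from R204, which had 2.42, 3.13 and 3.43. Of R551 and R977, 1920 bp apart and both above 500, R551 had 11.2, 9.97 and 8.41 and R977 had 0.424, 0.0993 and 0.118 (chr4:53486726-53487025). In each of these pairs the replicates of the neighbours did not overlap; the difference between neighbours itself was not tested, and these examples were picked with their values in view.

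The regions with only 1 to 4 passing constructs were not tested singly. Those above 500 with at least 5 had a summed activity ratio of 1.28 in retina and 0.843 in cortex. The difference of the sparser regions from these was not tested. In retina 182 sparser regions with 397 constructs had a ratio of 1.36 ± 0.0822, and in cortex 182 with 395 constructs had 0.813 ± 0.0554 (SD, n = 3).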
